A study of Mus musculus with 9 samples.

Results

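The protocadherin clusters of mouse chromosome 18 were examined as a region of 1090 kb that was chosen to span the Pcdha, Pcdhb and Pcdhg genes. The members described here run from 36931074 to 38006811, and every coordinate is of build mm9. Members were chosen by place and depth alone: CpG positions in this region covered by at least 10 reads in each of the 5 tables TKO, C, WT, WWD and R. There were 885 such positions of 1202 listed in any of the 5 tables, and of 1263118 nuclear positions covered in all 5 genome-wide. They lay in 145 of the 1090 tiles of 1 kb. A position is a cytosine of a CpG on 1 strand, and its level is the percent of reads that showed C after bisulfite treatment.

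Methylation was read by reduced representation bisulfite sequencing, in which DNA is cut with MspI and the CpGs near the cut sites are sequenced, in mouse J1 embryonic stem cells of passages 7 to 10. All 9 samples, controls included, came from Dnmt TKO cells, which lack the DNA methyltransferases. For TKO (1 sample) and C (2 samples) the labels record no construct and do not say how they differ, and WT, WWD and R (2 samples each) carried Dnmt3a2 constructs labelled WT, WWD and R. Dnmt3a2 is the short isoform of the de novo methyltransferase Dnmt3a, and the series title speaks of an engineered histone-recognition domain. The labels name 1 table for both samples of a group without saying whether it pools them or holds only 1, so each value below is from 1 table, no spread between replicates can be given, and each test compares the reads of 2 tables. How much construct the cells made, and which clone or promoter was used, is not given in the sources used here.

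Clustered protocadherins are cell-surface adhesion proteins of neurons. In the Pcdha and Pcdhg clusters each gene has its own large first exon, the variable exon, with its own promoter, and shares downstream constant exons with the others of its cluster, whereas Pcdhb genes consist of a single such exon. A neuron uses only a few of these promoters, and the choice is known to go with DNA methylation of the promoter and exon and with binding of CTCF, with Dnmt3b as the enzyme known to act on them in the early embryo. All of these genes are read in the direction of increasing coordinates on this chromosome. The gene table at hand (build GRCm38.p6) lists 58 of them, 14 Pcdha, 22 Pcdhb and 22 Pcdhg, of which 1 is a pseudogene. That table is of another build and no promoter sequence of these genes was at hand, so no tile below is assigned to a gene and no sequence is shown. The clusters here mean all members of the region, and some tiles and stretches may lie outside the protocadherin genes.

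Coverage of the region was good but uneven. The tables held 913 (TKO), 1083 (C), 1136 (WT), 1030 (WWD) and 1148 (R) positions in the region. At 663 of the 885 common positions (74.9%, against 71.6% on the other autosomes) TKO had at least 0.5 times the reads of WT. These full-depth positions had median coverages of 160 reads in WT, 178 in R, 153 in WWD, 137 in C and 155 in TKO. The other 222 positions had medians of 112, 90, 25.5, 54 and 16 reads in the same order. The levels differed between these depth classes, most of all in WWD and TKO. At the 222 positions the means were 9.1% in WT, 13.2% in R, 8.75% in WWD, 0.499% in C and 1.63% in TKO. WWD thus lay near WT there. Just inside the limit, at a read ratio of 0.5 to 0.7, 50 positions averaged 11.7% in WT and 3.35% in WWD, and just outside, at 0.3 to 0.5, 30 positions averaged 5.66% and 4.44%.

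Wild-type Dnmt3a2 left a low and uneven methylation across the clusters. At full depth the R table was slightly above it, the WWD table well below it, and the C and TKO tables were close to 0. At full-depth positions the mean level was 8.77% in WT, 9.78% in R, 2.49% in WWD, 0.312% in C and 0.147% in TKO. Pooled over reads, the same positions gave 8.75% (95% Wilson interval 8.58 to 8.93) in WT, 10.02% (9.85 to 10.19) in R, 2.42% (2.33 to 2.52) in WWD, 0.303% (0.268 to 0.342) in C and 0.154% (0.132 to 0.18) in TKO. These intervals do not overlap between any pair of tables. They cover counting error only and are too narrow, since 1 read counts at each CpG it covers and PCR copies cannot be told from molecules. Over all 885 positions the means were 8.85% in WT, 10.6% in R, 4.06% in WWD, 0.359% in C and 0.519% in TKO.

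**Figure D1:**
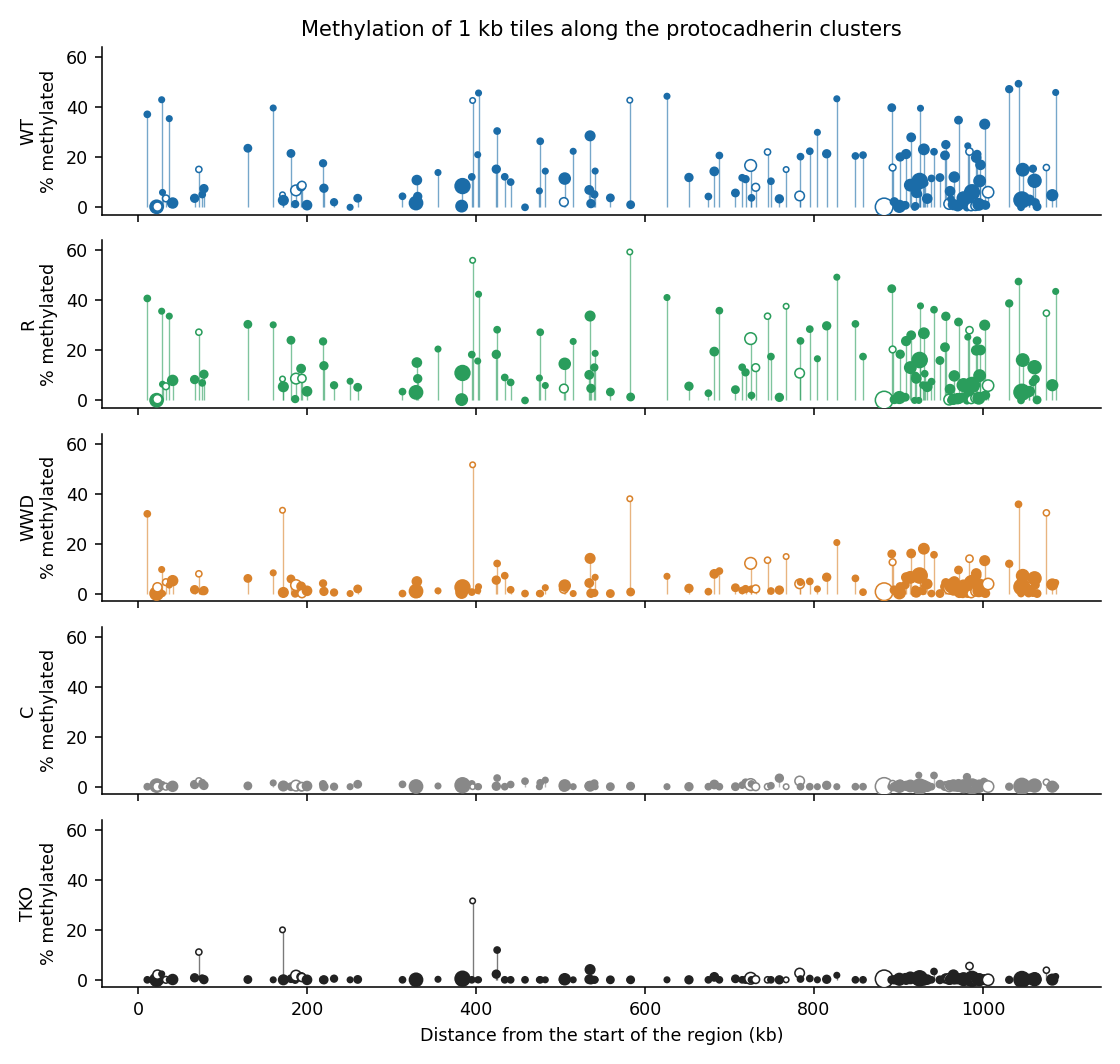
Mean methylation (percent, vertical axis) of the 145 tiles of 1 kb against distance from the start of the region in kb, with 1 panel for each table; marker area grows with the number of CpG positions and open markers are tiles with under 50% of their positions at full depth. WT and R tiles range from 0% to 49.4% and 59.4%, WWD is lower in most tiles, and the highest TKO tile, at 31.6%, is an open marker.

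Methylation in the cells without a recorded construct was close to 0. In TKO 567 of 663 full-depth positions (85.5%) had no methylated read and none was above 5%, and in C 543 (81.9%) had none and 1 was above 5%. At reduced depth 24 of 222 TKO positions were above 5%, and 4 were above 20%. The highest of these, on the forward strand at 37455354, had 35.7% of 14 TKO reads and 0% of 54 C reads. The same position had 41.0% of 166 reads in WT, 55.7% of 115 in R and 67.7% of 34 in WWD. The next, on the reverse strand at 37316076, had 31.6% of 19 reads in TKO and 0% of 59 in C. All 4 such positions thus rested on fewer than 20 TKO reads, and C held at most 4.65% there.

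Individual WT positions seldom went beyond intermediate levels. Among full-depth positions 26.2% had no methylated read in WT, 16.0% were above 20% and 0.905% (6 positions) were above 50%. On the other autosomes 26.5% were above 20% and 7.98% above 50%. The highest full-depth position, on the forward strand at 37951677, had 70% in WT (30 reads), 60.5% in R (38 reads), 28.3% in WWD (46 reads) and 0% in TKO (18 reads) and C (30 reads). At 37875987, on the reverse strand, WT had 57.4% of 263 reads and R 60.8% of 240, while WWD had 8.29% of 193, TKO 0.45% of 224 and C 0% of 176. Both positions thus had similar levels in R and different ones in WWD.

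The clusters were next set beside tiles of the other 18 autosomes with like numbers of rows in the WT table, as tiles with more rows were less methylated. In tiles with 10 or more WT rows and at least 5 common positions, WT averaged 5.73% over 33 cluster tiles, and 15.4% over 31389 tiles elsewhere weighted to the same row counts. R averaged 7.34% against 16.3%, and WWD 3.58% against 6.96%. C (0.287% and 0.336%) and TKO (0.469% and 0.484%) were near 0 in both. At full depth WT averaged 5.62% over 27 cluster tiles and 12.1% over 28068 others, R 6.59% and 12.3%, and WWD 2.25% and 3.68%. No test of this difference was made, because tiles of 1 library are not replicates.

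The difference was present in tiles with fewer rows and did not hold in those with the most. With 10 to 14 WT rows, 0 of 15 cluster tiles exceeded the median of the other autosomes in WT, with medians of 3.48% and 24.6%. With 5 to 9 rows, 2 of 42 exceeded it (7.82% and 32.1%), and with 1 to 4 rows 14 of 69 (15.1% and 31.6%). With 15 to 19 rows the medians were close, at 7.45% and 7.35%, while the means were 7.27% over 6 cluster tiles and 14.95% elsewhere. With 20 to 29 rows the order turned: 7 of 8 cluster tiles were above the other autosomes' median, at 6.05% against 1.02%, while the means were alike at 6.63% and 6.64%. Over all 12 tiles with 20 or more rows the cluster mean minus the weighted mean elsewhere was 0.26 points in WT, 0.257 in WWD and 1.26 in R. R followed WT in this, with medians of 6.09% and 26.0% at 10 to 14 rows and of 8.56% and 1.31% at 20 to 29 rows. Across the 145 tiles the row count and the WT level had a Pearson correlation of -0.35 and a Spearman correlation of -0.42, which is a description of 1 table whose neighbouring tiles share fragments.

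**Figure D2:**
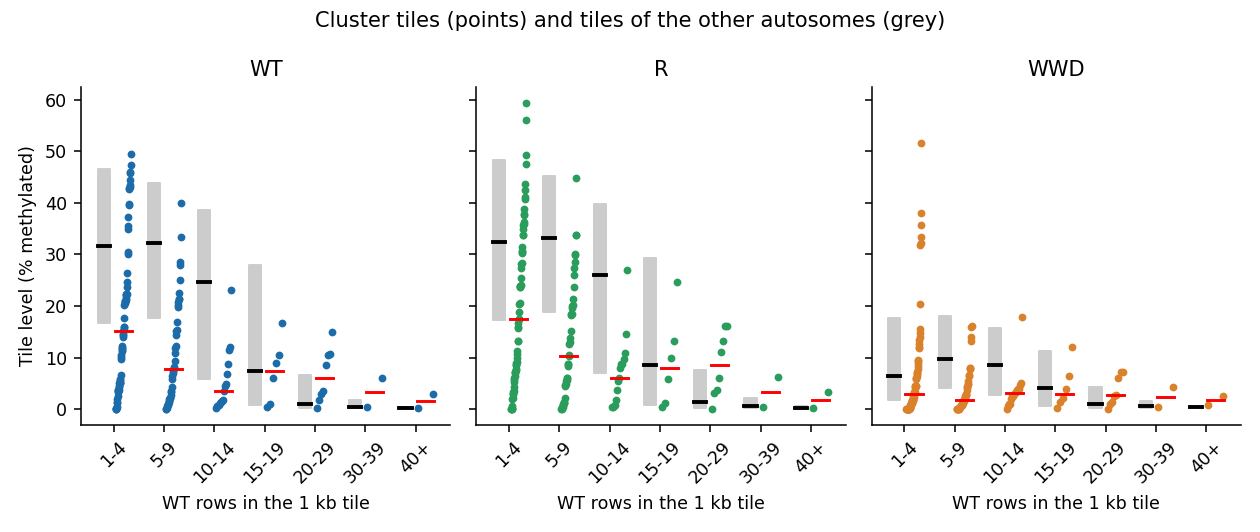
Tile level (percent, vertical axis) by number of WT rows in the tile, over all common positions, in panels for WT, R and WWD: points are cluster tiles in rising order with their median in red, and the grey bars span the quartiles of the tiles on the other autosomes with their median in black. In WT the cluster median is 3.48% against 24.6% at 10 to 14 rows, and 6.05% against 1.02% at 20 to 29 rows.

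Single positions in these tiles were also sorted by level. Of 349 full-depth cluster positions in tiles with 10 or more WT rows, 35.8% were at 0% in WT, 33.0% between 0 and 5%, 22.9% between 5 and 20%, 8.31% between 20 and 50% and 0% above 50%. On the other autosomes, weighted to the same row counts, the shares were 43.9%, 22.1% and 14.6% in the 3 lower classes, and 5.34% above 50%. Between 20 and 50% the cluster share was 5.69 points below that elsewhere. The cluster shares were thus lower at 0% and in both classes above 20%, and higher in between, with no test made. R had 26.1% of these positions between 5 and 20%, and 1 position above 50%. In WWD the share between 5 and 20% was 12.9% and 13.1% elsewhere.

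**Figure D3:**
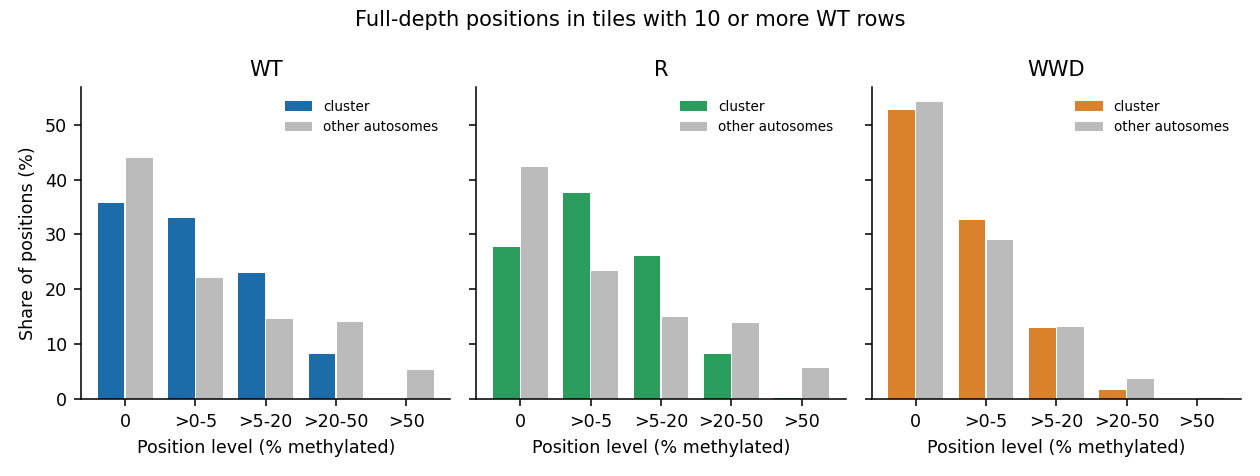
Share of full-depth CpG positions (percent, vertical axis) in classes of methylation level, in tiles with 10 or more WT rows: coloured bars are the 349 cluster positions and grey bars the positions of the other autosomes weighted to the same row counts. In WT 22.9% of cluster positions lie above 5 and up to 20%, against 14.6% elsewhere, and 0% against 5.34% lie above 50%.

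Levels were also followed along the region in 10 sections of equal length. At full-depth positions WT was lowest in the first section, at 4.87% over 34 positions, and highest in the eighth, from 37683000 to 37791999, at 19.02% over 19 positions. In all 10 sections WT was below the level of the other autosomes weighted to like row counts, which ran from 11.7% to 28.5%. The sections held very different numbers of positions: 194 and 201 lay in the last pair, which starts at 37792000, and 14 in the sixth. In the eighth section R had 22.7%, WWD 5.07%, C 0.21% and TKO 0.267%. That last pair had 8.88% and 9.05% in WT, 9.45% and 9.29% in R, and 2.56% and 3.28% in WWD. WWD exceeded TKO in all 10 sections, with a WWD to WT ratio between 0.16 and 0.363, and C lay between 0.0629% and 0.875%.

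**Figure D4:**
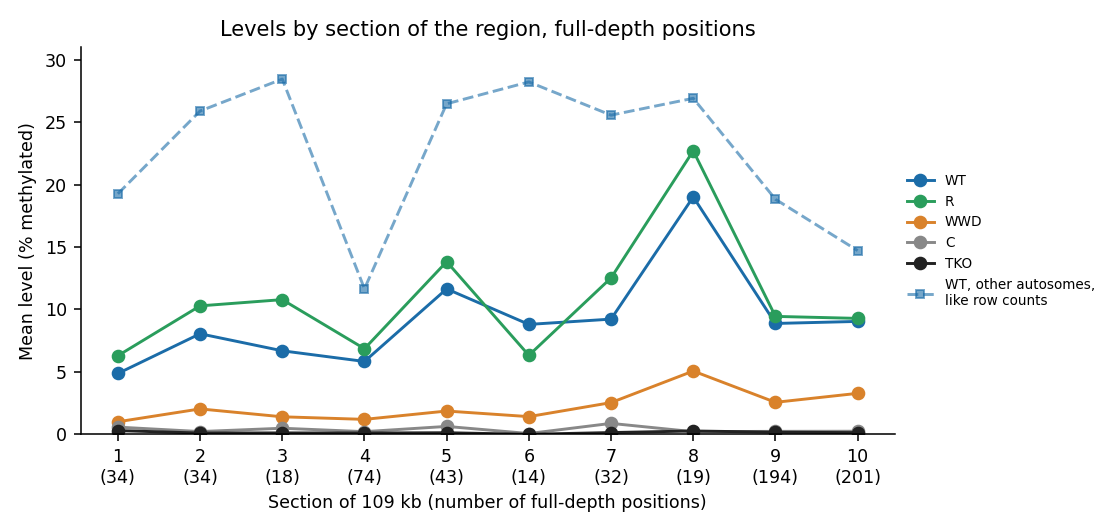
Mean level (percent, vertical axis) at full-depth positions in 10 sections of equal length, numbered along the region, with the number of positions in brackets; solid lines are the 5 tables and the dashed line is WT on the other autosomes weighted to the same row counts. WT lies below the dashed line in each section and peaks at 19.02% in the eighth.

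Tiles with 10 or more WT rows differed widely. The tile from 37850001 to 37851000 was highest in WT, with 23.2% over 11 positions (1482 read calls), 26.9% in R, 17.9% in WWD, 0.379% in C and 0% in TKO. Of these positions 7 were at full depth, and WWD was 9.42% pooled over reads. Next were the tile starting at 37645001, with 16.7% in WT, 24.7% in R, 12.1% in WWD, 0.845% in C and 0.606% in TKO, and the one starting at 37967001, with 15.04%, 16.2%, 7.12%, 0% and 0%. In the tile starting at 37645001, 6 of 15 positions were at full depth, and WWD was 7.7% pooled over reads. At full depth WWD was at most 6.1% in cluster tiles with 10 to 14 WT rows, that starting at 37850001 among them. With 15 to 19 rows, as in that starting at 37645001, WWD was at most 7.59%. The lowest was the tile from 37803001 to 37804000, which was close to 0 in each table: over 38 positions WT had 0.138%, R 0.136%, WWD 0.731%, C 0.0792% and TKO 0.37%. Tiles starting at 36942001 and 36943001 had 0.198% and 0.275% in WT. In the second of these TKO had 2.08% and WWD 2.5%, the latter on 218 read calls, with 0 of 8 positions at full depth.

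In most stretches of closely spaced CpGs, WT methylation was higher at the higher coordinates. The protocadherin genes are read in that direction, but no stretch was assigned to a gene, so a link to it was not tested. Positions no more than 300 bp apart formed 32 stretches of at least 10 positions, with spans of 60 to 1077 bp (median 446). Each was divided in the middle of its ordered positions. WT was higher in the second part in 26 of 32 stretches, with means of 5.98% in the first parts and 9.06% in the second. The median difference was 0.965 points, and 7 of the 26 exceeded 5 points. Over 21983 stretches on the other autosomes, WT was higher in the second part in 49.5% and lower in 49.6%. Genes there lie on both strands, so these shares cannot show whether levels followed the direction of the genes. R was higher in the second part in 25 of 32 stretches, with 7.37% and 11.3%, and WWD in 19 of 32, with 3.64% and 4.66%. At full-depth positions alone, WT was higher in the second part in 15 of 18 stretches, R in 12 and WWD in 9. The full-depth means of the first and second parts were 5.34% and 6.76% in WT, 5.81% and 7.48% in R, and 2.12% and 1.89% in WWD. This division was chosen after the data were seen, and no test was run.

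The largest such difference was in the stretch from 37834247 to 37835175, whose 20 positions include 13 at full depth. The first part averaged 2.19% in WT, 5.89% in R and 4.1% in WWD, and the second 27.0%, 28.2% and 14.6%. At its full-depth positions alone, 6 in the first part and 7 in the second, WT had 3.22% and 17.99%, R 7.34% and 14.6%, and WWD 2.02% and 2.23%. The higher WWD level of the second part was thus seen at reduced-depth positions. All 10 positions of the first part were under 8% in WT. In the second part they ran from 0% at 37834592 to 67.4% at 37835035, where R had 77.4%, WWD 80.7% of 62 reads and TKO 4.55% of 22 reads. That position lay on the reverse strand, and the forward strand of the same CpG, at 37835034, had 7.05% in WT (241 reads), 4.07% in R and 0.43% in WWD. Both strands of this CpG thus differed widely, but the reverse position was at reduced depth and the forward position at full depth. The part of depth in this difference was not tested. Stretches that started at 37875835 and 37454909 had 13.5% and 30.5%, and 19.7% and 36.1%, in their first and second parts in WT. The largest difference the other way was 16.3% and 5.51%, in the stretch starting at 37981176.

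**Figure D5:**
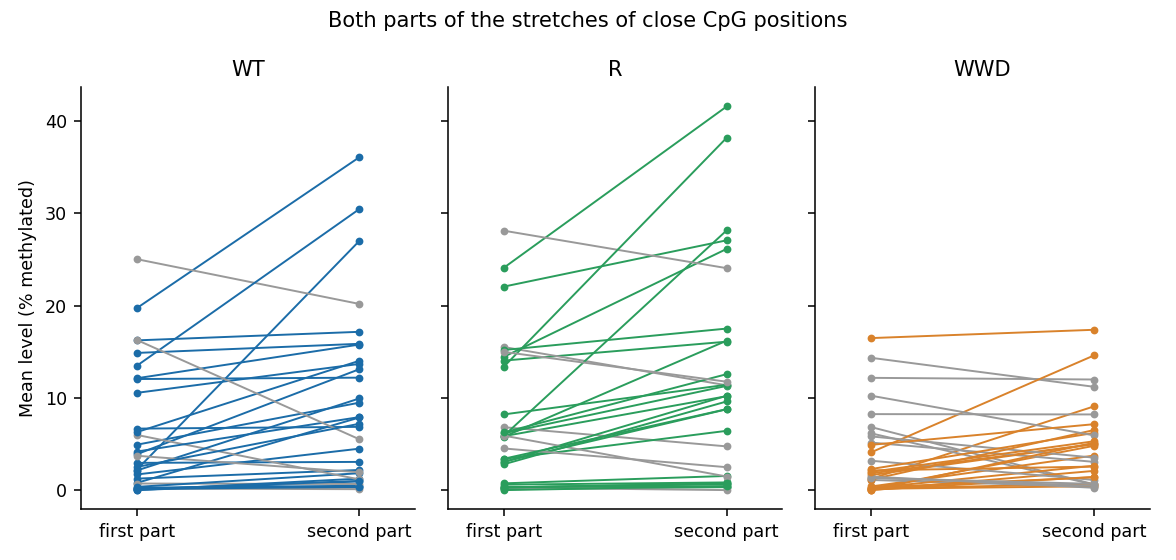
Mean level (percent, vertical axis) in the first and the second part of 32 stretches of close CpG positions, with 1 line for each stretch and panels for WT, R and WWD; coloured lines rise towards higher coordinates and grey lines do not. In WT 26 lines rise, in R 25 and in WWD 19.

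Levels often differed inside 1 stretch. In 14 of the 32 stretches WT had positions below 5% and others above 20%, and in 8 stretches each position was below 5%. Neighbouring full-depth positions 2 to 20 bp apart differed by 5.18 points on average in WT (267 pairs), and those over 100 and up to 1000 bp apart by 12.5 points (98 pairs). The same distances gave 4.54 and 13.6 points on the other autosomes. The Pearson correlation of neighbours in WT was lower in the clusters, at 0.594 and 0.186 for these distances against 0.777 and 0.554 elsewhere. Those pairs share fragments, and the range of levels was narrower in the clusters. Over 40 CpGs read at full depth on both strands, WT had 9.3% on the forward and 9.6% on the reverse strand, with a mean absolute difference of 6.99 points.

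Few positions of the clusters passed the test of WT against TKO. Of 910 positions tested, 84 (9.23%) were higher and 0 lower in WT by at least 25 points with an adjusted p under 0.01 (Fisher's exact test, Benjamini-Hochberg adjustment). Genome-wide 22.5% of 1288864 positions were higher and 0.064% lower, and 31.7% were higher on the other autosomes weighted to like row counts. The median difference was 2.97 points in the clusters and 1.09 over all positions tested. Of 67 tiles tested, 21 were higher and 0 lower (adjusted p under 0.01, at least 10 points), against 56.0% genome-wide and 64.5% at like row counts. They included 14 of 33 tiles with under 10 WT rows and 7 of 34 with more. The median tile difference was 5.09 points in the clusters and 16.2 over all tiles.

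The 5 largest gains over TKO were of 23.2 to 33.2 points. The tile from 37922001 to 37923000 had 33.3% in WT over 9 positions (1647 read calls), 30.1% in R, 13.2% in WWD, 1.01% in C and 0.0956% in TKO (1395 read calls), with an adjusted p of 4.14e-149 by Fisher's exact test. Such p-values are too small, as a read counts once per CpG. The tile starting at 37835001 had 28.0% in WT, 26.1% in R, 16.0% in WWD, 0% in C and 1.09% in TKO. Its WWD level was 7.87% pooled over reads, and 37835035, at reduced depth, had 80.7% in WWD. The 5 full-depth positions of this tile ran from 0.41% to 10.4% in WWD. In the tile starting at 37455001 the values were 28.6%, 33.8%, 14.1%, 0.199% and 4.1%, with the TKO reads at 37455354 named above among them. That position, at reduced depth, had 67.7% of 34 reads in WWD, and pooled over reads the tile had 6.67% in WWD. The tiles starting at 37876001 and 37850001 gained 24.3 and 23.2 points. Methylation in these 5 tiles was thus present in all 3 tables with a construct and near 0 in C.

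WWD had 0.284 times the WT level at full-depth positions, and 0.257 times on the other autosomes. Its gain over TKO was 27.2% of the WT gain in the clusters and 24.8% elsewhere. At full depth, tiles with 10 or more WT rows had a WWD to WT ratio of 0.4, against 0.303 elsewhere at like row counts. Over tiles of any row count with at least 5 full-depth positions the ratios were 0.279 and 0.278. WWD was below WT at 457 of the 663 positions, above it at 69 and equal at 137. Those below were 68.9% and those above 10.4%, against 54.3% and 9.55% on the other autosomes. Over tiles with at least 5 full-depth positions WWD was lower in 50 of 52, with a median difference of -3.99 points. It was higher in 3.85% of these tiles, against 11.4% elsewhere at like row counts. Of 1001 positions tested, 48 (4.8%) fell and 9 (0.899%) rose relative to WT by Fisher's exact test. Genome-wide 13.4% were lower and 0.461% higher, and on the other autosomes at like row counts 18.4% and 0.623%. Of the 9 higher ones, 0 were at full depth: 4 were at reduced depth and 5 were not covered in all 5 tables.

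Among 75 tiles tested, 13 fell and 0 rose in WWD relative to WT (48.7% and 0.102% genome-wide, 53.8% lower at like row counts). All 13 had under 10 WT rows, of 41 such tiles tested. The largest fall was in the tile from 37876001 to 37877000, which held 7 positions. Its mean over positions was 28.3% in WT and 6.15% in WWD, on 1030 and 936 read calls (adjusted p = 1.93e-50, Fisher's exact test). Its neighbour starting at 37875001 fell from 20.8% to 2.74%, and the tile starting at 37822001 from 20.1% to 2.72%, each with all positions at full depth. The tile starting at 37922001 fell from 33.3% to 13.2%. A fall of 14.9 points in the tile starting at 36992001 rested on 72 WWD read calls, with 0% of its common positions at full depth.

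Against TKO, WWD was higher at 15 of 896 positions and in 4 of 66 tiles by the same tests, with 0 lower in either (genome-wide 5.21% of positions were higher and 0.0011% lower, and 33.4% of tiles were higher). The shares higher were 1.67% of positions and 6.06% of tiles, against 7.49% and 38.8% on the other autosomes at like row counts. Of the 15 positions, 5 were at full depth. The 4 tiles started at 37645001, 37835001, 37850001 and 37922001 and gained 11.5 to 17.9 points. From summed reads each gained under 10 points, so that 0 passed. Full-depth positions alone also left 0 tiles.

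R was on average higher than WT in the clusters by a small amount that was uneven along the region. At full depth the difference was 1.01 points (9.78% and 8.77%), where the other autosomes had 0.0706 points (13.3% and 13.2%). R exceeded WT at 335 positions and was below it at 217, or 60.7% of those that differed, against 51.1% elsewhere. It was higher in 9 of 10 sections, with the sixth at -2.48 points over 14 positions and the third at 4.1 points over 18. In tiles with 5 to 9 WT rows the full-depth means were 12.4% in R and 10.5% in WT, and in tiles with 1 to 4 rows 16.4% and 16.5%. The tables are also of unequal depth, with medians of 178 and 160 reads at these positions, and the part of depth in the difference was not tested.

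Few single sites passed between R and WT. Of 1104 positions 5 were higher and 0 lower by Fisher's exact test, where 0.235% were higher and 0.0439% lower genome-wide. The 1 called at full depth was on the forward strand at 37735649, with 57.8% of 244 reads in R, 32.0% of 172 in WT, 20.5% of 166 in WWD and 0% in TKO and C (adjusted p = 0.000234, Fisher's exact test). Of 78 tiles, 2 were higher and 0 lower, where 2.6% were higher and 0.37% lower genome-wide. The larger, from 37152001 to 37153000, had 42.8% in R and 7.02% in WT over 8 positions. Of these, 5 were covered by 18 to 19 reads in R and 10 in WT only, with 64.9% and 10% on average. The other 3, common to all tables, had 6.07% and 2.04%. In the other tile, starting at 36992001, R had 29.7% and WT 18.1%, with 0% of the common positions at full depth. With each tile's read calls divided by its number of positions, 0 tiles passed.

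C was lower than WT at 121 of 1073 positions and higher at 0 by Fisher's exact test, where 24.4% were lower and 0.000904% higher genome-wide. Of 74 tiles 28 were lower and 0 higher, against 61.7% and 0% genome-wide. The shares lower were thus 11.3% of positions and 37.8% of tiles, against 34.4% and 67.3% on the other autosomes at like row counts. The largest difference was in the tile from 36922001 to 36923000, with 0% in C (102 read calls) and 52.6% in WT (238 read calls) over 5 positions, 0 of which were among the 885. WWD had 37.7% in that tile. The tiles starting at 37315001 and 37715001 had 0.444% and 0% in C and 30.6% and 28.99% in WT. The comparisons with WT share the WT table, and those with TKO the TKO table, so their calls are not independent of each other.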

How the data were processed

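Bismark, methylKit and build mm9 are named in the submitters' processing notes, without versions or order. Per the file headers, the authors deposited, for each position and strand, a read count (coverage) and the percent showing C or T. Positions covered by at least 10 reads are listed. 5 of the 6 deposited files were used, and 8 columns were not (those of a table tied to no sample, and the percent of T). Methylated reads are coverage times the percent of C, rounded.

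The members, lists and tests were chosen with earlier results of these data known. Levels are means over positions. Fisher's exact tests (Python 3.11.15, numba 0.67.0, tested on simulated data) ran on all nuclear positions with 10 reads in both tables, and on 1 kb tiles with 5 positions, with Benjamini-Hochberg adjustment over the genome. A tile's difference is that of means over positions. The 5 called tiles with the largest rise and fall in each comparison, and the 3 highest and lowest by WT level with 10 or more WT rows, are named; other positions and stretches were named after their values were seen. Row-count classes were 1 to 4 and 5 to 9 (tiles with at least 1 common position), and 10 to 14, 15 to 19, 20 to 29, 30 to 39 and 40 or more (at least 5).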

Additional observations from a re-analysis of the deposited data

How the results depend on the processing

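No paired analysis was possible because each group has 1 table that carries no replicate numbers, and for the same reason no replicate was left out. Of 152 alternatives over 28 results, 71 stayed the same: call counts within a set ratio of those reported, other values within counting error. Among the rest, 46 values moved by more, 25 call counts fell and 6 rose beyond that ratio, and 4 values turned direction. The cause was not tested, except that stricter limits test or pass fewer positions and tiles.

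Mean levels over all positions moved as follows. At a coverage minimum of 20, TKO was 0.225%, WWD 3.01% and R 10.12%, and at 30 the levels were 0.173% (TKO), 0.309% (C), 8.65% (WT), 2.56% (WWD) and 9.77% (R). Merged strands gave 0.454% in TKO and 3.7% in WWD, and pooled reads 0.205% and 2.88%. Means over tiles were 0.902%, 0.493%, 13.1%, 5.25% and 15.03% for TKO, C, WT, WWD and R, and at full depth 0.177%, 0.436%, 11.9%, 2.6% and 12.7%. At full depth merged strands gave 9.17% in WT, 2.8% in WWD and 10.4% in R, and pooled reads 10.02% in R. With full depth judged by TKO reads against C reads, in place of WT reads, WWD was 2.64%. The WWD to WT ratio was 0.305 with merged strands, 0.218 over tiles and 0.304 with full depth judged against C. These and the alternatives for R minus WT and for stretches were chosen after seeing the data.

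With a minimum difference of 10 points, 192 positions were called for WT against TKO, 145 for WWD against WT, 12 for R against WT, 258 for C against WT and 50 for WWD against TKO, and with 40 points 34, 11, 1, 54 and 8. At full-depth positions alone the counts were 1 for R, 70 for C and 5 for WWD against TKO. An adjusted p under 0.05 gave 8 for R, and coverage minimums of 20 and 30 gave 9 and 7 for WWD against TKO. Requiring 10 positions per tile left 7, 0, 0, 8 and 2 tiles in the same order, and 20 points left 8, 2, 1, 10 and 0. At full depth 0 tiles passed for R, 18 for C and 0 for WWD against TKO. Counts divided by positions left 0 tiles for R, and summed reads left 0 for WWD against TKO.

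The cluster minus the other autosomes, in tiles with 10 or more WT rows, turned at 20 or more rows, to 0.26 points in WT, 0.257 in WWD and 1.26 in R, while TKO moved to -0.151. The median over tiles turned TKO to 0.053 and gave -9.19 in WT, -2.34 in WWD and -7.65 in R. At full depth the differences were -6.52, -1.43, -5.76 and -0.0673 for WT, WWD, R and TKO, at a coverage minimum of 20 -6.96, -1.81, -6.24 and -0.0593, and with rows counted over common positions -7.02, -2.25, -6.27 and -0.11.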
